A study of Mus musculus with 19 samples.

Results

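Expression was compared between 6 organoid lines grown from mouse pancreatic adenocarcinomas and 7 lines grown from ducts of normal pancreas. These 13 of the 19 lines in the data were chosen by their labelled group, and every gene that reached a TPM (a transcript abundance scaled by length and library) of 1 in at least 6 of the 19 lines was tested, which left 12500 of 29861 genes. The pancreatic duct is a simple epithelium that carries digestive enzymes and secretes a bicarbonate-rich fluid, and its keratins, mucins and ion channels are the usual markers of ductal adenocarcinoma as well. Organoids are hollow epithelial spheres grown in a basement membrane gel, so the cultures hold the epithelium without the fibroblasts, vessels and immune cells that make up much of a pancreatic tumor.

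The tumor lines came from mice with the Trp53 LSL-R172H allele, which encodes a mutant p53 once Cre recombinase removes a stop cassette, and with Pdx1-Cre, in which the promoter of the pancreatic factor gene Pdx1 drives Cre. The normal lines came from wild-type mice. All mice had a C57B6/J background, per the labels, and their ages are not given there. Tumor lines were 3 female and 3 male, and normal lines 5 female and 2 male. Another 6 lines came from ducts of pancreas with intraepithelial neoplasia (PanIN, a precursor lesion) of Pdx1-Cre mice without the Trp53 allele. They entered the fit for the spread, and their levels are given beside some results. A change given without them may be shared by PanIN lines. All lines grew in one medium with EGF, FGF-10, gastrin, noggin, R-spondin, nicotinamide, N-acetylcysteine, B27 and A83-01, an inhibitor of TGF-beta receptors. Tumor and normal lines thus differ in genotype and in tissue of origin together, and effects of these cannot be told apart. The labels do not say whether lines share a mouse or a litter, and every p-value is set against the variation among these lines alone.

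The 13 lines held between 11945 and 12437 genes at a TPM of at least 1; TPM keeps no depth. All 10 duct markers were tested in these lines, with a summed level of 7357 to 9223 TPM in tumor lines and 10200 to 15240 TPM in normal lines. Among markers of other cell types, those of mesothelium and ciliated cells were not low. Mesothelial markers summed to 105.5 to 350.0 TPM in tumor lines and 47.9 to 190.0 TPM in normal lines, nearly all of it Msln, which was not called (adjusted p = 0.0552); Wt1, Upk3b and Lrrn4 stayed under 1 TPM in all 13 lines. Ciliated markers summed to 13.6 to 97.1 TPM in tumor lines and 52.2 to 141.7 TPM in normal lines. Most of this was Foxj1, at 10.4 to 88.2 TPM in tumor lines and 42.5 to 117.3 TPM in normal lines. Other lists were low. Of 10 acinar markers 5 were listed at 0 in all 13 lines (Cpa1, Amy2b, Pnlip, Ptf1a and Rbpjl), and the sum of the list was 1.56 to 2.77 TPM in tumor lines and 1.25 to 2.53 TPM in normal lines. Endocrine markers summed to at most 0.25 TPM in tumor lines and 0.31 TPM in normal lines, with Ins1, Ins2, Gcg, Ppy and Neurod1 listed at 0. Fibroblast or stellate markers summed to at most 0.23 TPM in either group, with Col3a1 and Lum listed at 0. Leukocyte markers summed to 1.76 to 4.01 TPM in tumor lines and 4.53 to 8.28 TPM in normal lines, with Cd3e, Tyrobp and Lyz2 listed at 0. Endothelial markers summed to at most 1.76 TPM in tumor lines and 2.28 TPM in normal lines, tuft cell markers to at most 3.24 and 6.86 TPM, and basal or squamous markers to at most 3.87 and 1.69 TPM. Names of the TPM columns carry library identifiers of 3 series: the first holds tumor 4 and normal 5, 6 and 7, the second tumor 5, 7 and 8 and normal 10 and 11, and the third tumor 3 and 9 and normal 12 and 13. Tumor 4 is the only tumor line of the first series, and it stood nearer to the normal lines than the other tumor lines did, as described at the end.

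Trp53 itself did not differ in level. It ranged from 56.2 to 86.4 TPM in tumor lines (median 69.5) and from 60.4 to 84.8 TPM in normal lines (median 67.2), with overlapping groups (log2 change 0.04, SE 0.11, adjusted p = 0.816). The level of a transcript does not check a point mutation, and the sign of this change turned under rescaling, under quantile normalization and without tumor 8. Pdx1 rose 1.72-fold, with 13.8 to 24.2 TPM in tumor lines and 6.59 to 13.3 TPM in normal lines.

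In all, 4024 of the 12500 genes were called at an adjusted p under 0.05, or 32.2% of those tested: 2219 were higher in tumor lines (17.8%) and 1805 lower (14.4%). These shares are the background for every list described here. Most changes were small. A change of at least 2-fold was called for 154 genes that rose and 306 that fell, and one of at least 4-fold for 28 and 16. All 6 tumor lines lay above all 7 normal lines for 363 genes and below them for 545, together 7.26% of genes. Without tumor 8 the number of called genes was 2657. Rises were 55.1% of the calls on the deposited scale but 37.4% after the libraries were rescaled without 11 very abundant rows that the authors' comparison leaves out, so which direction held more calls depended on that scaling. In tumor lines 16.3% to 25.4% of all TPM fell on those 11 rows, and in normal lines 23.3% to 28.6%.

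**Figure D1:**
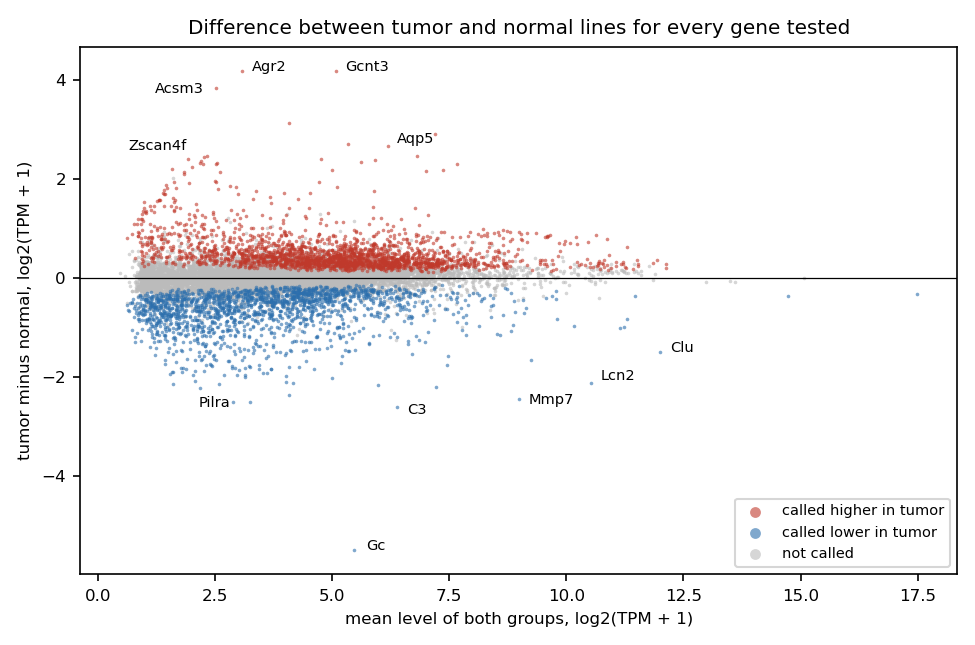
Difference between tumor and normal lines (y axis, log2(TPM + 1)) against the mean level of both groups (x axis, log2(TPM + 1)) for the 12500 genes tested, 1 point per gene; red genes were called higher in tumor lines, blue genes lower and grey genes were not called. Agr2 and Gcnt3 stand at the top with log2 changes of 4.19 and 4.18, and Gc at the bottom with -5.51.

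Many genes of mucus-secreting and gastric epithelium were higher in tumor lines. Of 44 genes in the mucus and gastric secretion list 25 passed the filter. Of these, 13 rose (52%) and 1 fell (4%), against 17.8% and 14.4% of all genes. The median log2 change was 0.47 against 0.04 for all genes. Members such as Agr2, Spdef and Vsig1 passed the filter with little or nothing from the normal lines. For these the filter favoured a rise, so the counts are no test of the list. Agr2, a disulfide isomerase needed for mucin folding, ranged from 10.7 to 83.5 TPM in tumor lines (median 26.4) and from 0.10 to 2.82 TPM in normal lines (median 0.56). Every tumor line was above every normal line, and tumor 8 and 9 were the highest, at 78.4 and 83.5 TPM. Agr2 was 18.2-fold higher on the log2(TPM + 1) scale (log2 change 4.19, SE 0.42, adjusted p = 8.47e-06). Gcnt3, which adds branches to mucin glycans, ranged from 82.7 to 186.3 TPM in tumor lines (median 137.1) and from 2.14 to 14.5 TPM in normal lines (median 4.66), again without overlap (18.1-fold higher, adjusted p = 1.34e-06). PanIN lines held 57.7 to 203.2 TPM of Gcnt3. Its relative Gcnt1 rose 4.39-fold and the fucosyltransferase gene Fut2 2.11-fold.

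Some transcripts that mark gastric lining cells rose too. Tff1, a secreted trefoil peptide of gastric pit cells, ranged from 19.8 to 85.7 TPM in tumor lines (median 72.0) and from 1.91 to 30.1 TPM in normal lines (median 10.7), and the groups overlapped (5.27-fold higher, adjusted p = 0.00283). Vsig1, a junction protein of gastric epithelium, rose 4.58-fold and Anxa10 2.91-fold, both at low levels with tumor medians of 4.50 and 5.21 TPM. Lgals4, a galectin of the gut lining, spanned 27.6 to 368.1 TPM in tumor lines and 7.26 to 78.6 TPM in normal lines (5.22-fold higher, adjusted p = 0.00729). Spdef, a transcription factor of goblet cells, stayed at or under 0.27 TPM in normal lines and at 1.07 to 5.72 TPM in tumor lines (2.91-fold higher). It passed the filter through the tumor lines alone, as PanIN lines held at most 0.54 TPM, so only a rise could be found. For Vsig1 normal lines held at most 0.64 TPM and added nothing to the filter. The direction of the list held within each series, with median log2 changes of 0.48, 0.38 and 0.87 in the first, the second and the third.

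In the list of gut and pancreas transcription factors 8 of 35 tested rose (22.9%) and 7 fell (20%). These shares were near those of all genes (17.8% and 14.4%), and the median log2 change was 0.02. Cdx2, the master regulator of intestinal fate, ranged from 3.78 to 22.9 TPM in tumor lines (median 6.72) and from 0.92 to 3.27 TPM in normal lines (median 1.47), without overlap (3.47-fold higher, adjusted p = 0.000943). Mecom, a zinc finger factor known from blood stem cells and leukemia, rose 3.87-fold (adjusted p = 1.40e-05), and the endoderm factor gene Foxa3 2.04-fold. The vitamin D receptor gene Vdr was 1.97-fold lower, at 1.59 to 2.95 TPM in tumor lines and 3.99 to 6.38 TPM in normal lines. Median log2 changes of this list were -0.07, 0.10 and 0.08 in the 3 series.

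Several of the largest rises belonged to none of these groups. Acsm3, a mitochondrial enzyme that activates medium-chain fatty acids, ranged from 6.49 to 52.3 TPM in tumor lines (median 15.5) and from 0.07 to 1.01 TPM in normal lines (14.4-fold higher, adjusted p = 8.47e-06). Aqp5, a water channel of secretory glands, ranged from 81.7 to 373.4 TPM in tumor lines (median 154.3) and from 12.1 to 43.3 TPM in normal lines (median 29.5), a 6.38-fold rise (adjusted p = 0.000227). Neither gene overlapped between the groups. Park2, a ubiquitin ligase gene known from familial Parkinson's disease, rose 5.53-fold to a tumor median of 274.0 TPM, and the focal adhesion gene Tns4 5.28-fold. Slc39a8, a zinc and manganese importer, was 3.11-fold higher and the proprotein convertase gene Pcsk6 3.29-fold, both with an adjusted p of 1.24e-05. Plac9 rose 4.95-fold, Ppp1r1b, a phosphatase inhibitor best known from striatal neurons, 3.82-fold, and S100a7a, an S100 protein of stressed epithelium, 5.15-fold. Olfm4, a marker of intestinal stem cells, was 6.54-fold higher with overlapping groups: tumor 7 held 433.9 TPM, the other tumor lines 20.1 to 112.7 TPM, and normal lines 2.64 to 30.8 TPM.

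**Figure D2:**
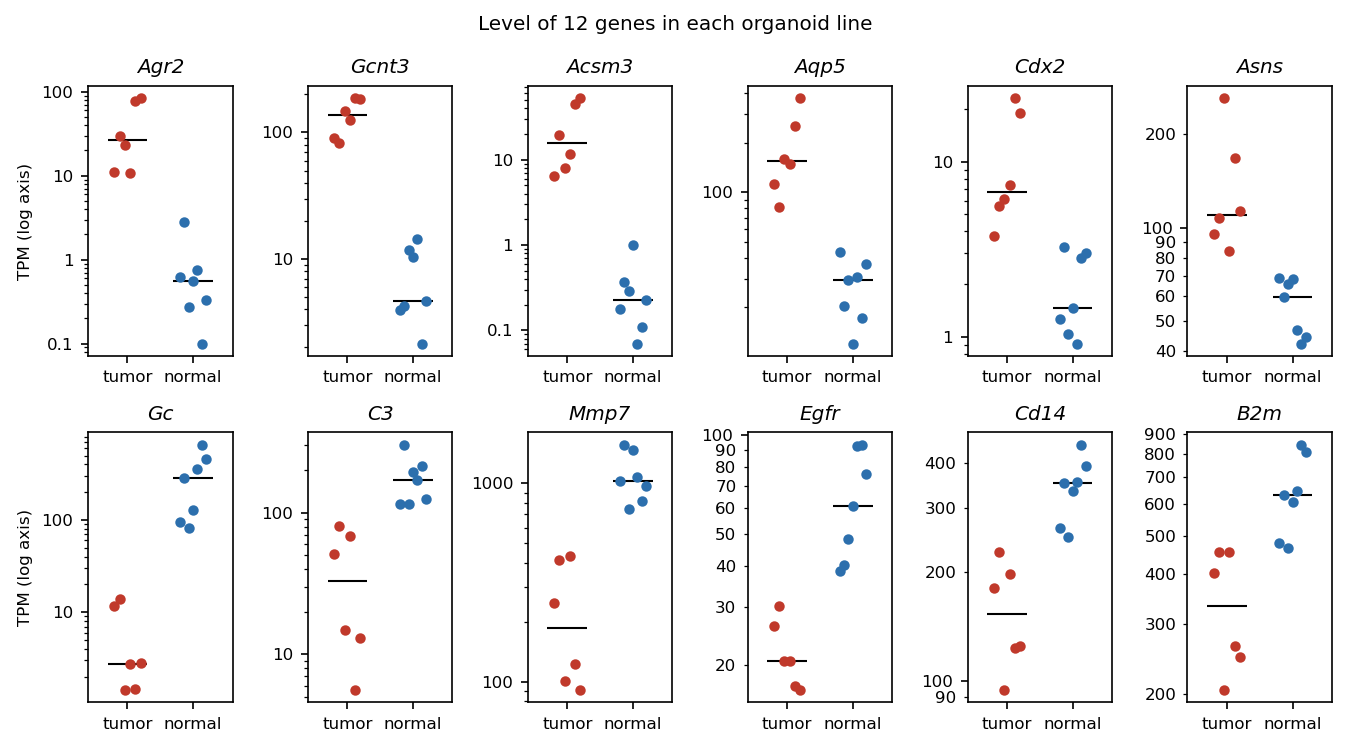
Level of 12 genes in each line (y axes, TPM on log axes of different range), with the 6 tumor lines at left in red, the 7 normal lines at right in blue and a bar at each group's median. For these 12 genes no tumor line overlapped a normal line: the top row shows rises and the bottom row falls.

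A group of genes known from cleavage-stage embryos was higher in tumor lines at low levels. The cleavage-stage embryo genes list holds 20 genes, of which 17 were in the data and 10 passed the filter. Of these, 9 rose and 0 fell, with a median log2 change of 1.37. In normal lines Zscan4b, Zscan4d and Tdpoz4 reached at most 0.67, 0.68 and 0.95 TPM. These passed through tumor and PanIN lines alone, so the filter favoured a rise, and the counts are no test of the list. The Zscan4 copies may share reads and are not separate results. Zscan4f, which is transiently expressed in early embryos and in a small share of embryonic stem cells, ranged from 4.83 to 15.1 TPM in tumor lines (median 10.4) and from 0.17 to 2.97 TPM in normal lines (median 0.70). All tumor lines were above all normal lines (5.42-fold higher, adjusted p = 0.000576). Zscan4c rose 3.67-fold, Zscan4b 2.11-fold, Zscan4d 2.44-fold, Tdpoz4 2.95-fold, Usp17l5 3.51-fold and the zinc finger gene Zfp352 2.73-fold. In PanIN lines Zscan4f spanned 0.92 to 14.7 TPM. The list's median log2 change was 0.66, 1.47 and 1.86 in the 3 series, and 9 members were called without any 1 line. Where only genes at a TPM of at least 5 in 6 lines were kept, 1 member of the cleavage-stage embryo genes list was called.

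The Zscan4 genes are near-identical copies, and the counting may split their reads, so values of single copies are uncertain. The start regions of 2 of them show this likeness: shifted by 23 bases, 275 of 277 aligned bases were the same (99.3%). Both are given here from RefSeq (build GRCm38.p6, plus strand, 250 bases before to 50 after the start), with the bases that differ in capitals. Zscan4f lies at chr7:11397665-11397964 and Zscan4c at chr7:11005495-11005794.
Zscan4f: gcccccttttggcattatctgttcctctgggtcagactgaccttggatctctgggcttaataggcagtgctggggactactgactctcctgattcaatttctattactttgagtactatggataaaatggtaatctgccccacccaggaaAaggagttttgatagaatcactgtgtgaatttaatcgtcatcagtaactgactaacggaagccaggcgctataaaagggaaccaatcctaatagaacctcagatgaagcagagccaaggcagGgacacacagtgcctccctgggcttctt
Zscan4c: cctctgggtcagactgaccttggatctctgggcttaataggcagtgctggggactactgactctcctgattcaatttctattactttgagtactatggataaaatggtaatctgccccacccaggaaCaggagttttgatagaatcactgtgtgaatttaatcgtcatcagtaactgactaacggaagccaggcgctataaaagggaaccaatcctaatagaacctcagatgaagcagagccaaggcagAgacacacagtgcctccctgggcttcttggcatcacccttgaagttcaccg
Over the best ungapped alignments, the 4 Zscan4 start regions compared were 95.3% to 99.3% identical, while Tdpoz4 and Zfp352 were at most 32.8% identical to any other member.

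Many genes of amino acid synthesis and import that ATF4 controls were higher. ATF4 is a transcription factor made when amino acids run short or protein folding fails, and its targets supply serine, glycine, asparagine and one-carbon units. Of 31 tested members of the ATF4 response and serine synthesis list, 13 rose (41.9%) and 1 fell (3.23%). Among all genes 17.8% rose and 14.4% fell. The list's median log2 change was 0.51. Asns, asparagine synthetase, ranged from 83.8 to 261.3 TPM in tumor lines (median 110.0) and from 42.2 to 68.6 TPM in normal lines (median 59.9), a 2.27-fold rise without overlap (adjusted p = 0.00233). Cth, which makes cysteine from cystathionine, rose 3.02-fold (adjusted p = 0.000227). The serine pathway enzymes Psat1 and Psph were 1.78-fold and 1.85-fold higher, and the mitochondrial one-carbon enzymes Shmt2 and Mthfd2 1.92-fold and 1.95-fold. Slc7a5 and Slc3a2, both chains of the large neutral amino acid importer, rose 2.39-fold and 1.62-fold. Atf4 rose 1.42-fold, while Cebpb, a partner of ATF4 in some promoters, was 1.36-fold lower, without overlap. Tumor 5 was the highest line for Asns, Psat1, Psph, Mthfd2 and Slc7a5. Its list score, the mean log2(TPM + 1) of the members minus the mean of all 19 lines, was 1.04, against -0.05 to 0.28 in the other tumor lines and -0.44 to -0.05 in normal lines. Without tumor 5 at least 13 members were still called, and median log2 changes in the 3 series were 0.25, 0.66 and 0.60.

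The promoter of Asns carries the composite site to which ATF4 binds together with a C/EBP protein. It is shown as the called member with the smallest p whose start region held the pattern TGATGNAA on either strand (build GRCm38.p6, chr6:7693160-7693459, minus strand, site in capitals).
Asns: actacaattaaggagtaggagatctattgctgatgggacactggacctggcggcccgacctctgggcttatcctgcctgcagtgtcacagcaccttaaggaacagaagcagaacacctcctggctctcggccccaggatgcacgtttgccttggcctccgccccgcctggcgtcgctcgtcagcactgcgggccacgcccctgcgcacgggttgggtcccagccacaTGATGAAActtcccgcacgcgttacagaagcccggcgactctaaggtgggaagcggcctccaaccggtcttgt
This pattern was present in the start regions of 9 of 27 list members with a RefSeq sequence (33.3%), and in 2.70% of the 8228 tested genes that had one. Among all called genes it was in 3.50% of those that rose and 3.08% of those that fell.

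Many cell cycle genes were higher in tumor lines, but not in all of these lines. S phase genes build and copy DNA and are switched on by E2F factors, and mitotic genes follow later under the DREAM and MuvB complexes, which bind the CHR element. In the DNA replication and S phase list 35 of 48 rose (72.9%, against 17.8% of all genes) and 0 fell. In the mitosis list 18 of 42 rose (42.9%) and 0 fell. Median log2 changes of these lists were 0.51 and 0.60. E2f2, itself an E2F factor, ranged from 2.53 to 6.54 TPM in tumor lines (median 5) and from 1.1 to 2.69 TPM in normal lines (median 1.28); tumor 4, at 2.53 TPM, lay within the normal range (2.10-fold higher, adjusted p = 0.00394). The thymidine kinase gene Tk1 rose 1.91-fold, the ribonucleotide reductase gene Rrm2 1.92-fold, the replicative helicase gene Mcm3 1.58-fold and the sliding clamp gene Pcna 1.34-fold. Single lines decided some of these calls: Mcm3 was lost without tumor 5 or tumor 8, and Pcna without normal 11, normal 13 or tumor 5, 8 or 9. Mybl2, the MuvB partner, rose 2.02-fold, Birc5 (survivin) 1.85-fold, Cenpa, the histone of centromeres, 1.77-fold and Cdk1 1.62-fold. Mki67, the proliferation marker, ranged from 85.5 to 153.3 TPM in tumor lines (median 125.0) and from 35.9 to 121.5 TPM in normal lines (median 88.3), with wide overlap (1.6-fold higher, adjusted p = 0.0310). Its call was lost without normal 11, 12 or 13 or tumor 5, 8 or 9, and that of Birc5 without tumor 8.

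These counts moved with single lines. The number of risers in the DNA replication and S phase list was 13 without tumor 8, 15 without tumor 5, 15 without tumor 9, 17 without normal 11 and 21 without normal 13. In the mitosis list it was 5 without tumor 8, 7 without tumor 5, 8 without tumor 9, 9 without normal 11, 8 without normal 13 and 30 without tumor 4. Normal 11 had the lowest scores of the 13 lines in both lists (-0.76 for S phase and -1.3 for mitosis), and tumor 4 had the lowest of the tumor lines (-0.20 and -0.13). Median log2 changes of the S phase list were -0.27, 0.92 and 0.62 by series, and those of the mitosis list -0.30, 1.12 and 0.66; in the first series tumor 4 stands against 3 normal lines.

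The start regions of E2f2 and Cenpa are shown because each was the called member with the smallest p in its list whose sequence held the element searched. The E2F patterns were TTTGGCGC, TTTCCCGC, TTTGCCGC and TTTCGCGC, and the CHR patterns TTTGAA and TTCGAA, on either strand. E2f2 is at chr4:136172024-136172323 and Cenpa at chr5:30666636-30666935, both on the plus strand of GRCm38.p6, with matches in capitals.
E2f2: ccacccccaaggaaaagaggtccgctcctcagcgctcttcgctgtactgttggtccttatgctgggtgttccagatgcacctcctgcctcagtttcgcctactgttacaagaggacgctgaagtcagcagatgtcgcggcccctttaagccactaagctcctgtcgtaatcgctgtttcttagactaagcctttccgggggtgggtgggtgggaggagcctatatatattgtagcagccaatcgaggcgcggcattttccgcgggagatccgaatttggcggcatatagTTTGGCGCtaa
Cenpa: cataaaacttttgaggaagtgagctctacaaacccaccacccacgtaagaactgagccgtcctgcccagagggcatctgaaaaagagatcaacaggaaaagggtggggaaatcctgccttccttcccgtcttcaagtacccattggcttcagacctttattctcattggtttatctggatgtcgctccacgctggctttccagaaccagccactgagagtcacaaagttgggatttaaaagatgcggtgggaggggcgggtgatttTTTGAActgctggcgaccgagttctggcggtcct
An E2F pattern was found for 15 of 38 S phase members with a sequence (39.5%) and for 4.96% of all tested genes, 7.12% of genes that rose and 3.97% of genes that fell. A CHR pattern was found for 26 of 34 mitosis members (76.5%) and 16.1% of all tested genes, and CCAAT for 25 of these 34 (73.5%) and 43.7% of all. Among called genes a CHR pattern was in 18.2% of those that rose and 15% of those that fell. CCAAT was in 44.1% and 41.7%.

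Regulators of G1 moved with mixed roles: 7 of 16 rose (43.8%, against 17.8% of all genes) and 1 fell. Without tumor 8, 3 rose. Cdkn2a, the locus of the tumor suppressors p16 and p19, ranged from 80.8 to 129.2 TPM in tumor lines (median 95.4) and from 44.6 to 67.1 TPM in normal lines (median 53.3), a 1.79-fold rise without overlap (adjusted p = 0.000617). Ccnd2, cyclin D2, rose 1.75-fold. Cdkn1a, the p21 inhibitor and a p53 target, was 1.54-fold lower (adjusted p = 0.0173); its call was lost without tumor 8. Among 36 tested p53 targets 11 fell (30.6%, against 14.4% of all genes) and 1 rose, with a median log2 change of -0.20. Without tumor 8, 7 of these targets fell. Fas, a death receptor, ranged from 1.09 to 4.06 TPM in tumor lines and from 5.64 to 8.20 TPM in normal lines (2.27-fold lower, adjusted p = 0.000342), and the kinase gene Plk2 was 1.69-fold lower. Mdm2, the ubiquitin ligase that p53 induces, was not called (adjusted p = 0.376), with medians of 64.2 TPM in tumor lines and 64.1 TPM in normal lines. PanIN lines, without the Trp53 allele, held 92.7 to 124.5 TPM of Mdm2, 64.9 to 89.3 TPM of Cdkn1a and 4.75 to 7.25 TPM of Fas. The p53 list's median log2 change was -0.25, -0.26 and -0.09 in the 3 series.

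Some genes of nuclear pores, ribosome assembly and respiration rose by small steps. Among 28 nucleoporins 13 rose (46.4%, against 17.8% of all genes) and 0 fell. Risers included Seh1l (1.33-fold) and Nup160 (1.42-fold). In the list of ribosome biogenesis genes 16 of 50 rose (32%) and 3 fell (6%). The nucleoporins had 4 rises without tumor 5 and 4 without tumor 8, and the ribosome biogenesis list 6, 6 and 7 without tumor 5, 8 and 9 and 29 without tumor 4. In the first series the median log2 change of both lists was -0.10. Of 76 respiratory chain genes 31 rose (40.8%) and 1 fell, with a median log2 change of 0.15. Atp5g1, a subunit of the ATP synthase ring, rose 1.55-fold and Ndufb10, of complex I, 1.46-fold, both without overlap. After quantile normalization 15 of the respiratory chain genes were called higher and 4 lower.

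Among genes of detoxification and fuel use more rose than fell, as was so among all genes (17.8% against 14.4%). Of 46 NRF2 targets and glutathione genes, 14 rose (30.4%) and 5 fell (10.9%). Without tumor 5, 3 fell, and 2 without tumor 8. Ugdh, which makes UDP-glucuronate, ranged from 89.9 to 123.0 TPM in tumor lines (median 98.5) and from 35.4 to 69.1 TPM in normal lines (median 47.1; 2.13-fold higher, adjusted p = 5.64e-05), and glutathione reductase (Gsr) rose 1.62-fold. Ftl1, the ferritin light chain, was among the largest gains of abundance, with a median of 2954 TPM in tumor lines and 1832 TPM in normal lines (1.55-fold higher). The drug efflux pump gene Abcb1b rose 2.37-fold. It belongs to the aldehyde, drug and retinoid metabolism list, where 12 of 43 rose (27.9%) and 8 fell (18.6%). Of 32 glycolysis and pentose phosphate genes 8 rose (25%) and 1 fell (3.12%). The risers were led by the glucose importer gene Slc2a3 (2.58-fold) and the lactate transporter gene Slc16a1 (1.66-fold). Of 27 genes of fatty acid activation and oxidation 8 rose (29.6%) and 3 fell (11.1%), with a median log2 change of 0.06. Acsl5 (1.66-fold) and Pparg (1.91-fold) were among the risers. Of 36 genes of cholesterol and fatty acid synthesis 12 rose (33.3%) and 0 fell.

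Several secreted plasma proteins were lower in tumor lines. These are made mostly by the liver, and inflamed epithelia make some of them too. Of 15 tested members of the acute phase and plasma proteins list, 9 fell (60%, against 14.4% of all genes) and 0 rose. The list's median log2 change was -1.40. Gc, the vitamin D binding protein, ranged from 1.43 to 13.8 TPM in tumor lines (median 2.76) and from 82.1 to 654.0 TPM in normal lines (median 286.8). No line overlapped, and tumor 3 and 4 were the highest tumor lines, at 11.7 and 13.8 TPM. Gc was 45.5-fold lower (log2 change -5.51, SE 0.62, adjusted p = 2.17e-05), the largest change of any called gene. The pentraxin genes Crp and Apcs were 3.74-fold and 2.64-fold lower, and both reached at most 0.71 TPM in tumor lines. Crp passed the filter through the normal lines alone, as PanIN lines held at most 0.91 TPM of it.

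Abundant members of this group fell as well. Lcn2, an iron-scavenging defence protein, ranged from 214.9 to 1760 TPM in tumor lines (median 662.0) and from 1717 to 3372 TPM in normal lines (median 2409; 4.35-fold lower, adjusted p = 0.00278). Tumor 5, 8 and 9 stood at 214.9 to 253.1 TPM, while tumor 3, 4 and 7 stood at 1071 to 1760 TPM, so that the groups overlapped at their edges. Ceruloplasmin (Cp) was 3.15-fold lower, the LPS-binding protein gene Lbp 2.75-fold, Saa3 4.45-fold and haptoglobin (Hp) 3.89-fold; Hp had an adjusted p of 0.0487, and leaving out any of 10 of the 13 lines removed its call. The list's median log2 change was -0.23 in the first series, -1.61 in the second and -1.85 in the third. Complement genes had 6 falls (40%, against 14.4% of all genes) and 2 rises (13.3%, against 17.8%) among 15 tested. C3, the central complement protein, ranged from 5.59 to 80.4 TPM in tumor lines (median 32.9) and from 114.5 to 302.3 TPM in normal lines (median 169.9; 6.08-fold lower, adjusted p = 0.00146). The inhibitor gene C4bp was 3.47-fold lower, whereas Cd59b, a membrane inhibitor of complement, rose 2.27-fold. The complement median was 0.09, -0.71 and -0.42 in the 3 series.

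Many receptors and transducers of innate sensing were lower. The innate sensing and NF-kB list holds receptors of microbial products, the NF-kB subunits and their feedback genes. Of 39 tested members 20 fell (51.3%, against 14.4% of all genes) and 0 rose (median log2 change -0.32). Cd14, the co-receptor for bacterial LPS, ranged from 94.1 to 227.1 TPM in tumor lines (median 152.5) and from 250.1 to 450.2 TPM in normal lines (median 352.0; 2.23-fold lower, adjusted p = 0.000386), without overlap. Its partner Tlr4 was 1.47-fold lower, the inflammatory caspase gene Casp12 4.38-fold, the NF-kB subunit genes Relb and Nfkb1 1.63-fold and 1.22-fold, and the feedback inhibitor gene Tnfaip3 1.92-fold. The call of Nfkb1 was lost without normal 12 or tumor 5, 8 or 9. Tumor lines had list scores of -0.51 to 0.03, all below those of the normal lines (0.09 to 0.47). Median log2 changes were -0.18, -0.48 and -0.48 in the 3 series.

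Cytokines and antigen presentation followed the same direction in part. Of 24 cytokines and chemokines 12 fell (50%, against 14.4% of all genes) and 2 rose, with a median log2 change of -0.62. Il1rn, the antagonist of interleukin-1, ranged from 26.0 to 37.9 TPM in tumor lines (median 34.6) and from 64.9 to 139.6 TPM in normal lines (median 75.3; 2.52-fold lower, adjusted p = 4.38e-05). Csf1, the macrophage growth factor, was 2.85-fold lower, the chemokine gene Cxcl16 1.82-fold, and the neutrophil chemokine gene Cxcl5, one of the most abundant transcripts, 2.01-fold with a tumor median of 1670 TPM and a normal median of 3470 TPM. By series, the median for cytokines was 0.11, -0.69 and -1.1, so the first series had a median above 0.

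The list for MHC class I presentation had 9 falls (52.9%) and 1 rise among 17 genes, with series medians of -0.17, -0.22 and -0.49. B2m, the light chain of MHC class I, ranged from 205.1 to 456.0 TPM in tumor lines (median 333.5) and from 465.8 to 844.1 TPM in normal lines (median 633.4; 1.94-fold lower, adjusted p = 0.00119). The immunoproteasome gene Psmb8 was 2.81-fold lower and the peptide transporter gene Tap2 1.94-fold. The heavy chain genes H2-K1 and H2-D1 were not called (adjusted p = 0.823 and 0.257), with tumor medians of 262.8 and 209.2 TPM and normal medians of 254.8 and 195.2 TPM; their reads can be shared with other H2 genes, and the sign of both changes turned in some alternatives. Of 31 interferon response genes 8 fell (25.8%, against 14.4% of all genes) and 1 rose. Falls included the RNA sensor gene Ifih1 (1.57-fold lower) and Parp12 (1.6-fold lower). The interferon response list had 4 falls without tumor 8, 5 without tumor 5, 5 without tumor 9 and 13 without tumor 4, and its series medians were 0.04, -0.36 and -0.15.

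The start regions of Tnfaip3 and B2m are shown as the called members with the smallest p that held an NF-kB pattern, GGGNNTTTCC, or an interferon response element pattern, GAAANNGAAA, on either strand. B2m held both patterns within a short stretch. Tnfaip3 is at chr10:19015361-19015660 (minus strand) and B2m at chr2:122147437-122147736 (plus strand), GRCm38.p6, with matches in capitals.
Tnfaip3: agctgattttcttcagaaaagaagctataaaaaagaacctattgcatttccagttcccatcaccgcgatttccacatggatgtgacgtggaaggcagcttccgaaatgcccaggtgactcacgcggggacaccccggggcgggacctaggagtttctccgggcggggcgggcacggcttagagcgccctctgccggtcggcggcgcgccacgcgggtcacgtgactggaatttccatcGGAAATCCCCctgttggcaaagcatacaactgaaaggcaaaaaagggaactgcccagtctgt
B2m: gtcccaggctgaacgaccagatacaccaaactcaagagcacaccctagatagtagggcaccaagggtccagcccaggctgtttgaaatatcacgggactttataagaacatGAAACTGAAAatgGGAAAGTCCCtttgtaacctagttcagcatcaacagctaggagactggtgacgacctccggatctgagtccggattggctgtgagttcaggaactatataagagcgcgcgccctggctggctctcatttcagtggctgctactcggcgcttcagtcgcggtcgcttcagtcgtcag
The NF-kB pattern was found for 6 of 29 members of the sensing list with a sequence (20.7%), for 5 of 15 cytokine genes (33.3%) and for 2.11% of all tested genes. Among called genes it was in 2.37% of those that rose and 2.03% of those that fell. The interferon pattern was found for 12 of 26 interferon response genes (46.2%), 5 of 15 presentation genes (33.3%) and 3.39% of all tested genes. It was in 2.97% of called genes that rose and 4.46% of those that fell. Pattern shares of list members, here and above, describe the lists and do not test the changes in tumor lines.

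Some genes of the extracellular matrix were lower. Of 20 basement membrane and matrix genes 8 fell (40%, against 14.4% of all genes), 0 rose and 12 were not called. Their median log2 change was -0.40. Bgn, a small proteoglycan, ranged from 0.27 to 4.98 TPM in tumor lines and from 6.29 to 31.7 TPM in normal lines (5.67-fold lower, adjusted p = 0.000576). Fibronectin (Fn1) was 2.84-fold lower, the laminin genes Lama4 and Lamb3 3.39-fold and 1.99-fold, and the collagen IV gene Col4a1 1.97-fold. The matrix median was 0.02, -0.57 and -0.43 in the 3 series. Of 22 metalloproteases and inhibitors 7 fell (31.8%), 2 rose and 13 were not called, with a median log2 change of -0.27. Mmp7, an epithelial metalloprotease, ranged from 91.1 to 430.7 TPM in tumor lines (median 187.1) and from 740.6 to 1566 TPM in normal lines (median 1035), a 5.47-fold fall without overlap (adjusted p = 0.000581). Its inhibitor family member Timp1 was 1.91-fold lower, and the sheddase gene Adam9 rose 1.39-fold, without overlap. Among integrins and adhesion genes 8 of 25 fell (32%) and 2 rose. Falls included Itgb6 (1.97-fold lower) and Cd44 (1.76-fold lower). With rescaling without the 11 rows, 13 of the integrins and adhesion genes were called lower.

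In the lists for YAP and TAZ, TGF-beta and BMP, and Wnt more members fell than rose, with medians near 0. Among 21 YAP and TAZ targets 6 fell (28.6%, against 14.4% of all genes), 0 rose and 15 were not called. Their median log2 change was -0.06. Ankrd1 was 1.98-fold and Nuak2 2.27-fold lower. In the TGF-beta and BMP pathway 10 of 30 fell (33.3%) and 4 rose (13.3%), with a median log2 change of -0.09. Its type I TGF-beta receptors are blocked by A83-01 in all cultures. Without each of tumor 5, 8 and 9, 6 fell. The 4 rises became 2 without each of normal 10, 11 and 13 and tumor 3 and 8. Inhba, the activin A subunit, ranged from 0.30 to 1.27 TPM in tumor lines and from 2.07 to 12.7 TPM in normal lines (3.77-fold lower, adjusted p = 0.000153). The ligand gene Tgfb2 was 2.43-fold lower and Pmepa1, a TGF-beta target, 3.91-fold. Without the normal lines Tgfb2 would not have passed the filter, which thus favoured a fall for it. Within the Wnt pathway 6 of 24 fell (25%, against 14.4% of all genes) and 4 rose (16.7%, against 17.8%), with a median log2 change of -0.10; the ligand gene Wnt7a was 3.01-fold and the receptor gene Fzd1 1.86-fold lower.

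Genes of the EGF receptor and MAPK pathways moved in both directions. Of 24 receptors and ligands of the EGF and FGF families, 6 fell (25%) and 4 rose (16.7%), against 14.4% and 17.8% of all genes. Without tumor 8, 2 fell, and 3 without each of normal 5, 11 and 13. Egfr ranged from 16.7 to 30.2 TPM in tumor lines (median 20.6) and from 38.6 to 93.5 TPM in normal lines (median 60.8; 2.75-fold lower, adjusted p = 0.000192), and PanIN lines stood between at 30.5 to 55.5 TPM. The EGF receptor ligand gene Tgfa was 1.37-fold higher and the FGF receptor gene Fgfr4 1.56-fold higher, while Igfbp7, an IGF-binding protein, was 2.22-fold lower. The call of Tgfa was lost without tumor 9. Of 31 MAPK feedback and output genes 8 rose and 8 fell (25.8% each), with a median log2 change of 0.07. The risers were led by Emp1 (3.38-fold), Hmga2 (2.25-fold) and the ETS factor genes Etv5 and Etv4 (1.80-fold and 1.59-fold). Immediate early genes were among the 8 falls, while the list of immediate early and heat shock genes as a whole had 7 falls, 4 rises and 15 members not called among 26, with a median log2 change of 0.02. Its rises numbered 2 without each of normal 6, 11 and 13 and tumor 5, 8 and 9. Junb, at 64.9 to 84.5 TPM in tumor lines and 104.3 to 143.3 TPM in normal lines, was 1.76-fold lower (adjusted p = 0.000143), Dusp1 2.24-fold, Egr1 1.97-fold and Fos 1.66-fold.

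**Figure D3:**
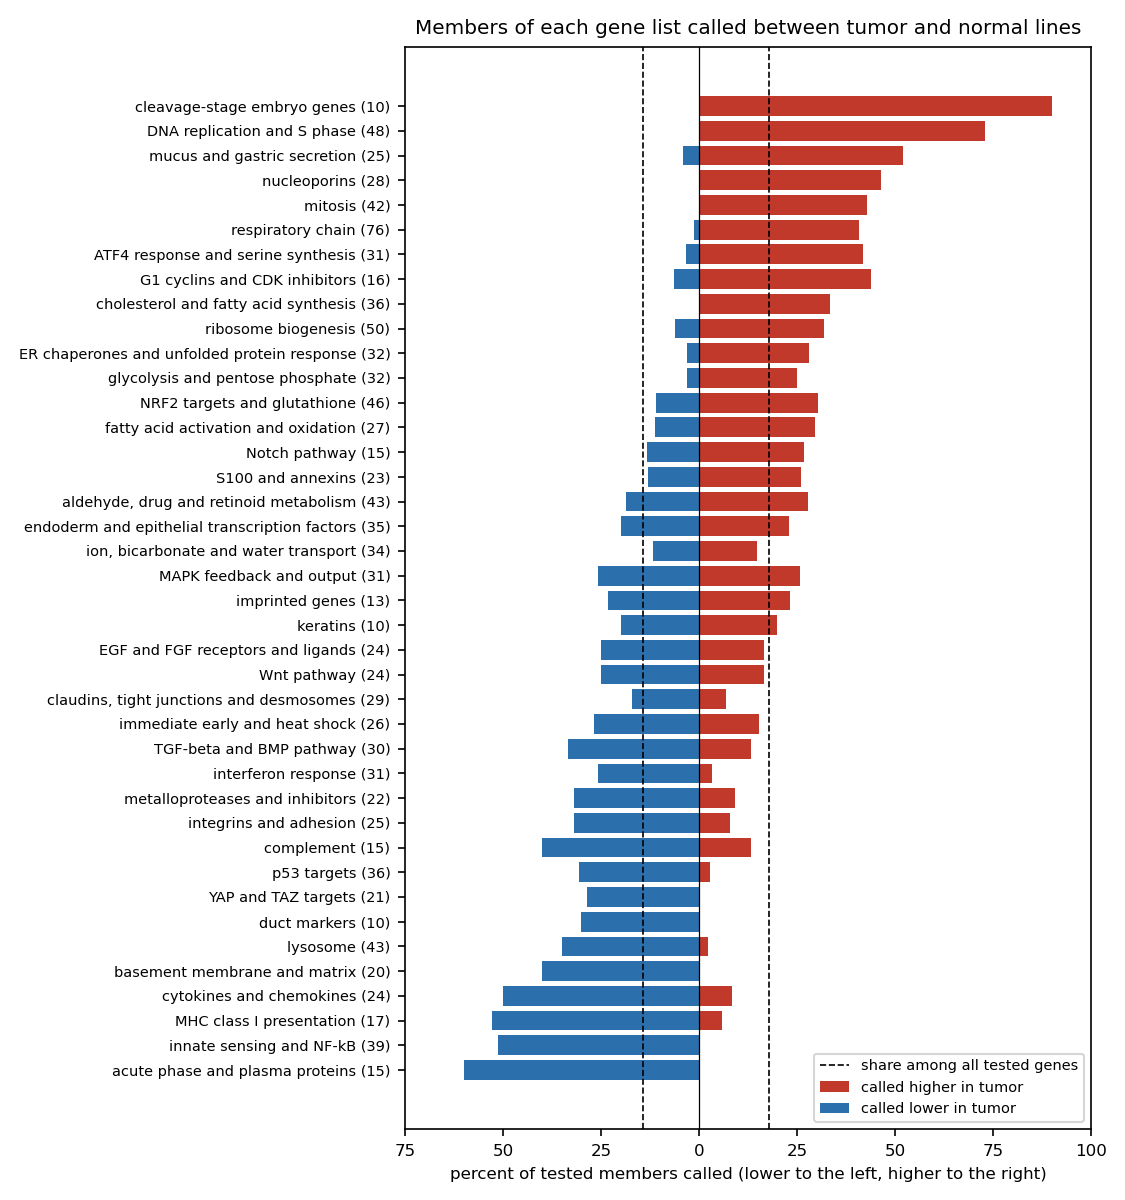
Percent of tested members of each gene list that were called (x axis; lower in tumor lines to the left, higher to the right) for the lists with at least 10 tested members, whose number stands in brackets; dashed lines mark the share among all 12500 genes (14.4% lower, 17.8% higher). Cleavage-stage embryo and S phase genes stand at the top, and acute phase, innate sensing and MHC class I genes at the bottom. Members that failed the filter are not counted, and for some mucus and cleavage-stage genes the filter favoured a rise.

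Of the 10 duct markers 3 fell (30%, against 14.4% of all genes) and 0 rose. Krt8, a keratin of simple epithelia, ranged from 1587 to 2244 TPM in tumor lines (median 1871) and from 2775 to 5042 TPM in normal lines (median 3074; 1.79-fold lower, adjusted p = 0.000524). Its partner Krt18 was 1.29-fold lower, a call lost without tumor 8, and osteopontin (Spp1) 2.02-fold, while Krt19 was not called (adjusted p = 0.0707), with medians of 897.4 TPM in tumor lines and 1100 TPM in normal lines. The duct markers had 5 falls after rescaling without the 11 rows and 5 after quantile normalization. Clusterin (Clu), with the largest normal levels among the named genes, ranged from 1242 to 4393 TPM in tumor lines and from 4654 to 9248 TPM in normal lines (2.83-fold lower, adjusted p = 0.00390). The signalling inhibitor gene Socs2 was 3.97-fold lower and the peptide gene Edn1 (endothelin) 3.79-fold. Pilra and Chi3l1, known from myeloid cells among others, were 5.74-fold and 4.66-fold lower; the part that leukocyte RNA may have in this was not tested; leukocyte markers summed to 1.76 to 4.01 TPM in tumor lines and 4.53 to 8.28 TPM in normal lines. Among those markers Csf1r was 2.20-fold lower, with at most 1.26 TPM in tumor lines and 5.57 TPM in normal lines. Csf1r would not have passed the filter without the normal lines, so the filter favoured a fall for it. In bulk RNA, fewer cells of a kind and less RNA per cell cannot be told apart.

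Ciliary genes fell together. Motile cilia are built by a program under Foxj1 that is rare in the adult duct, where cells carry primary cilia. All 5 tested ciliated markers were called lower, with a median log2 change of -1.15 and values of -0.69, -1.05 and -1.21 in the 3 series. Of these, Tekt1 would not have passed the filter without the normal lines, so the filter favoured a fall for it. Foxj1 ranged from 10.4 to 88.2 TPM in tumor lines (median 48.5) and from 42.5 to 117.3 TPM in normal lines (median 101.7), with overlap (2.22-fold lower, adjusted p = 0.0243); its call was lost without tumor 5 and without tumor 8. The structural genes were scarcer: Rsph1 was 2.06-fold lower, Ccdc39 2.43-fold and Tekt1 2.24-fold, and Ccdc39 and Tekt1 did not overlap. PanIN lines held 99.6 to 186.2 TPM of Foxj1. Without tumor 8, 3 of the 5 were called.

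Of 43 lysosomal genes 15 fell (34.9%, against 14.4% of all genes), 1 rose and 27 were not called. The list's median log2 change was -0.16. Cathepsin D (Ctsd) was 1.37-fold lower, the membrane protein gene Lamp2 1.55-fold and acid sphingomyelinase (Smpd1) 1.24-fold. The lysosome list had 8 falls without tumor 5 and 9 without tumor 8.

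**Figure D4:**
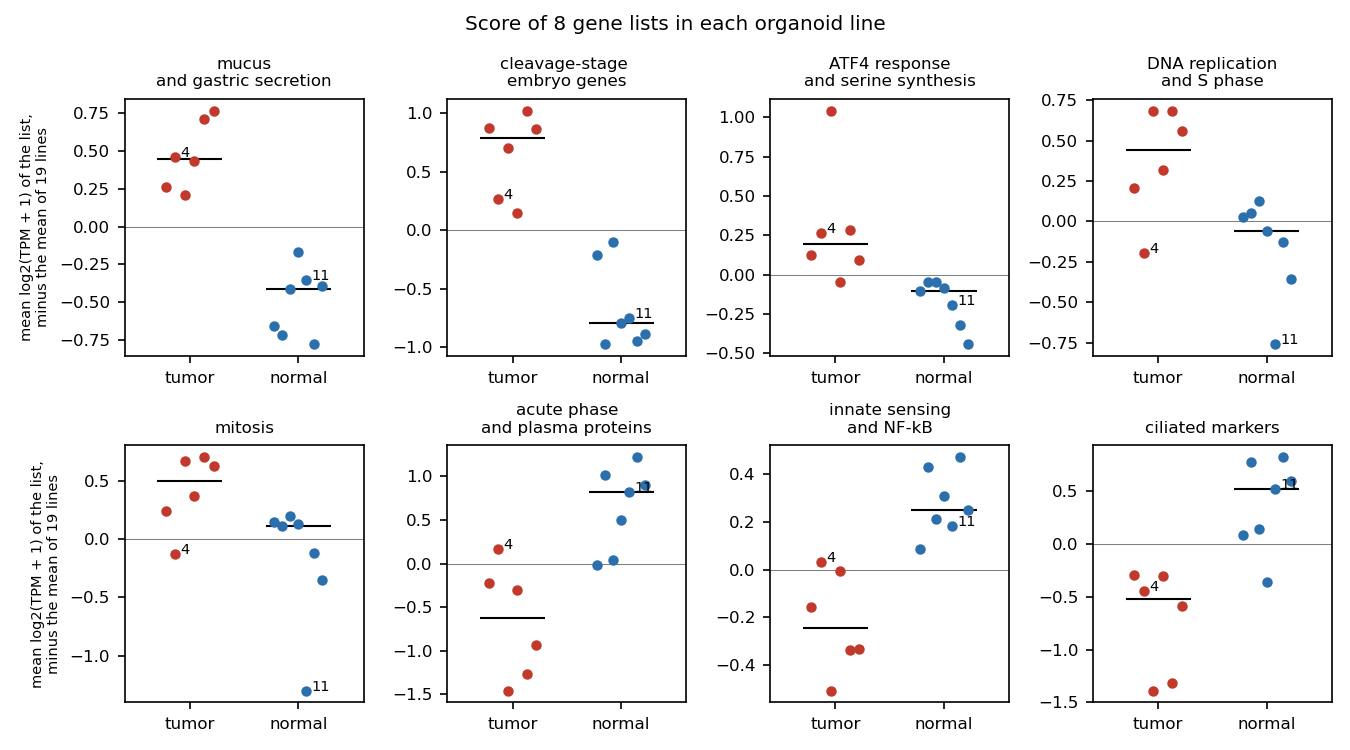
Score of 8 gene lists in each line (y axis, mean log2(TPM + 1) of a list's tested genes, centred on the average of all 19 lines), with tumor lines at left in red and normal lines at right in blue, bars at the medians and tumor 4 and normal 11 numbered. The groups are apart for the mucus, cleavage-stage and innate sensing lists, while tumor 4 lies among the normal lines for the S phase, mitosis and acute phase lists. For some mucus and cleavage-stage genes the filter favoured a rise, so the gaps of these lists are no test.

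Tumor 4 stood apart from the other tumor lines in how far it had moved. Each tumor line was compared with calls made from the other 18 lines. Tumor 9 lay on the called side of the normal mean for 99.6% of the calls made without it, tumor 8 for 99.2%, tumor 5 for 96.9%, tumor 3 for 96.2% and tumor 7 for 93.8%, while tumor 4 did so for 78.8%. Beyond all 7 normal lines in the called direction were 94.1% of the calls for tumor 8, 90.6% for tumor 9, 85.7% for tumor 5, 63.5% for tumor 7, 57.8% for tumor 3 and 32.1% for tumor 4. The normal mean and range come from lines that also made the calls, so these shares describe the tumor lines and test nothing. Tumor 4 was also the sole tumor line of its identifier series, so line and series cannot be told apart for it.

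**Figure D5:**
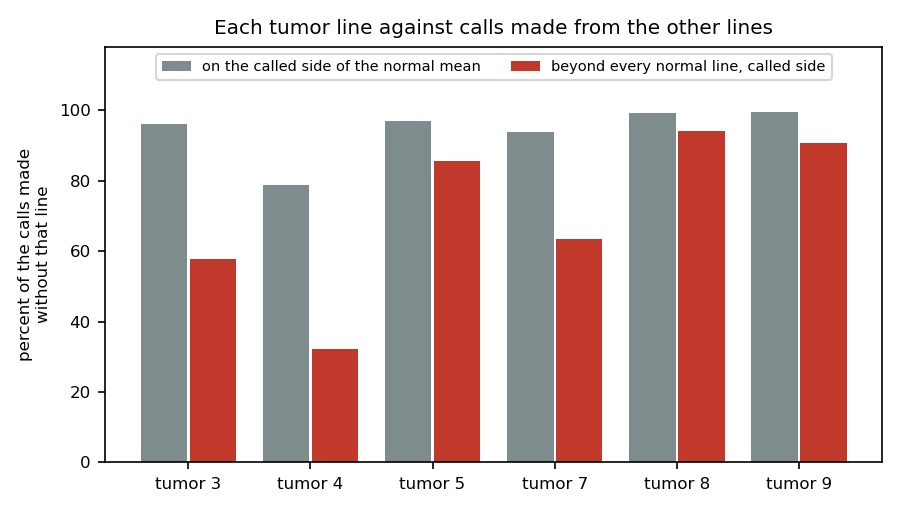
For each tumor line, the percent of the genes called without that line (y axis) for which it lay on the called side of the normal mean (grey) and beyond all 7 normal lines on that side (red). Tumor 8 and 9 are beyond the normal lines for over 90% of the calls, tumor 4 for 32.1%. The number of calls differs between lines, from 2657 without tumor 8 to 4860 without tumor 4.

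The difference between tumor and normal lines depended on sex for 2 genes at an adjusted p under 0.05 (limma; 1695 genes at an unadjusted p under 0.05). Liph, a phospholipase gene, differed by a log2 change of -0.25 in male and 1.23 in female lines, and Chchd8 by -0.20 and 0.72 (adjusted p = 0.0312 for both). The male comparison rests on 3 tumor and 2 normal lines, and the 3 male tumor lines include tumor 4. With the 13 lines fitted alone, 0 genes passed. Over 11692 genes with a known chromosome, the median of a chromosome in a tumor line differed from that line's overall median by at most 0.07 on the log2 scale, and by at most 0.07 in normal lines. DNA copy number was not measured.

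The authors' deposited table gives its own comparison, made from counts with other software. At an adjusted p under 0.05 it holds 5417 genes, 2695 higher and 2722 lower in tumor lines. Of the 4020 genes called here that have an adjusted p in the authors' deposited table, 3914 pass there with the same sign and 0 with the opposite sign.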

How the data were processed

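Total RNA of organoid lines was sequenced after ribosomal RNA removal (stranded libraries, per the labels' protocols). The authors deposited 1 table with TPM per gene and line; per the submitters' processing notes the tools were FastQC, Bowtie 1.1.0, RSEM 1.2.11, DESeq and DESeq2 1.4.1, with build mm9. Per the file headers the deposited table also holds a mean signal per gene, log2 fold changes, a test score, p-values and adjusted p-values of the authors' comparisons. TPM keeps no depth, so counting error is unknown and no counts were tested.

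Genes with a TPM of at least 1 in at least 6 of 19 lines were kept. A gene can pass this filter through 1 group alone, and the filter then favours a call toward that group. A pseudocount of 1 was added, and log2 values were fitted with limma 3.58.1 (R 4.3.3), with 1 mean per group and a trend in the variance, after tests on simulated data. Tumor was compared with normal, p-values were adjusted by Benjamini-Hochberg over 12500 genes, and genes were called at an adjusted p under 0.05. Fold changes refer to log2(TPM + 1) and understate changes of low genes. The labels do not say that matching line numbers across groups link lines, so none were paired in the main fit. Start regions came from RefSeq (GRCm38.p6), 250 bases before to 50 after the start, for 8228 tested genes.

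Members and lists were chosen with earlier results of these data known. Genes were named by these rules: up to 20 largest rises and 20 largest falls without overlap whose higher group averaged 5 TPM or more, up to 3 members per list with the smallest p, up to 10 largest gains and 10 largest losses of mean TPM, and Trp53 and Pdx1. A gene of these rules may be unnamed, and other named list members are examples chosen after their values were seen. Some alleles of the mice are not reported here. Alternatives covered pseudocount, filter, scaling, terms for sex, series and line number, a rank test and leaving out each line.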

Additional observations from a re-analysis of the deposited data

Results flagged for a closer look

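Single lines stood far from their group for 12 of the 294 sets of values checked (each gene within the tumor or the normal lines), and chance flags about 1 in 20 such sets. Among normal lines, normal 6 was high for Agr2 (2.82 TPM, next 0.76), Fzd1 (16.5 TPM, next 9.74), Chi3l1 (24.2 TPM, next 9.23) and Lamp2 (143.5 TPM, next 118.2). Normal 12 was high for Trp53 (84.8 TPM, next 69.8) and Nfkb1 (67.2 TPM, next 52.0), and normal 10 for Acsm3 (1.01 TPM, next 0.37) and Chchd8 (17.9 TPM, next 14.1). Normal 13 was high for Anxa10 (1.46 TPM, next 0.73). Normal 11 was low for Tk1 (19.1 TPM, next 37.1) and Cdk1 (33.3 TPM, next 62.6). Among tumor lines, tumor 5 was low for Tgfa (38.9 TPM, next 54.2).

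The change between tumor and normal lines differed by sex for Chchd8, with a male minus female difference of -0.92 on the log2 scale, and for Liph, with -1.48.

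Otop1, which failed the filter on low values, reached 11.2 TPM in tumor 8 and at most 1.09 TPM in the other tumor lines, and was listed at 0 in all 7 normal lines.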

How the results depend on the processing

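Of 28 alternatives, most left the count of 4024 called genes within 1.5 times. The exact Wilcoxon rank sum test called 2484. With line number as a replicate block the count was 225 (36 higher, 189 lower). Tumor and normal lines share only the numbers 5 and 7, whose deviations correlated at 0.25 and -0.31. These values cannot decide whether the numbers link lines, and the labels name no such link. Leaving out 1 line gave 2657 to 4860 calls, with 2657 without tumor 8. No alternative called a gene of the main result with the opposite sign. Rises were 37.4% of calls after rescaling, 60.6% with a TPM minimum of 5, 49.9% under median-of-ratios scaling and 50.4% under quantile normalization. The number of genes whose change depended on sex was 0 in the fit on 13 lines and 1 with a TPM minimum of 5.

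Among uncalled genes, the log2 change of Trp53 turned to -0.0497 after rescaling and -0.0781 under quantile normalization, and spanned -0.0236 (without tumor 8) to 0.0988 when 1 line was left out. That of H2-K1 turned to 0.0091 with the block and spanned -0.0841 to 0.041 when 1 line was left out, turning without normal 10 and without tumor 3, and that of H2-D1 turned to -0.0138 under quantile normalization; the cause was not tested.

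The main limits are 6 tumor lines of unstated relatedness, 1 tumor line in the first identifier series, unknown depth and a genotype that goes with the tissue of origin.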
